A study of Mus musculus with 2 samples.

Results

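Type I interferon-stimulated genes are the genes that cells switch on when interferon alpha or beta reaches them, and most of their products sense or block viruses. They were taken from the annotated table as the array genes whose name equals 1 of 45 listed names. That gave 35 of the 31492 array genes. The list held both the older and the newer name of some genes, so Isg15 stands on the array as G1P2 and Cmpk2 as TYKI. Of the 10 names without an array gene, 2 were these newer names, 6 had array genes under older names that are described at the end, and 2 (GBP3 and XAF1) were not analysed here.

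The cells were osteoclast precursors from the bone marrow of C57BL/6 mice of 8 weeks, sorted as CD3-, CD45R-, CD11b lo/- and CD115+, where CD115 is the M-CSF receptor. In both groups the cells grew for 3 days in MEM-alpha medium with 10% fetal bovine serum and 30 ng/ml M-CSF, the growth factor that keeps monocytes and macrophages alive. The control cells had no further factor (the M-CSF group), and the others also received 30 ng/ml RANKL, the cytokine that starts osteoclast formation (the RANKL group). RNA came from the adherent cells. Each group is 1 deposited mean of 3 biological replicates run on separate Illumina bead arrays, with its SD. The labels do not say whether the replicates were separate animals, sorts or cultures, so a p-value here covers only the differences among 3 replicates, and their number limits the precision.

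Secreted type I interferon binds a receptor made of the chains IFNAR1 and IFNAR2. The kinases JAK1 and TYK2 on that receptor then activate a transcription complex that holds STAT2 and IRF9 and binds a DNA element, the interferon-stimulated response element (ISRE), in front of the target genes. In osteoclast precursors of the mouse, interferon beta is known as a brake on osteoclast formation, and RANKL itself can induce it.

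Most of the measured members were lower with RANKL. Detection p-values were under 0.01 in at least 1 group for 23 of the 35 members, and these were tested. At an adjusted p under 0.05 in a limma moderated test, 17 were lower, 3 were higher and 3 did not pass. Over all 11012 tested genes, 57.8% were called, 29.0% lower and 28.9% higher. At least 2-fold falls were seen in 7 of the 23 members, against 7.01% of all tested genes, and at least 2-fold rises in none, against 6.90%. The 7 falls include that of Usp18, which barely reached 2-fold (2.01) and was dim with RANKL. The median log2 fold of the 23 was −0.78, beside 0.00 over all tested genes. Of the 23 members, 13 were detected in both groups, 9 with M-CSF alone only and 1 with RANKL only. A gene that passed the detection filter only through its brighter group was bound to look different, so the 13 detected in both groups are given apart. Their calls were 9 lower and 2 higher, while 2 missed the threshold, and the median of their log2 folds was −0.86. Over all 9270 array genes detected in both groups, 28.6% were lower and 27.6% higher, with a median log2 fold of −0.006. In a mixed culture, fewer cells of a type and less RNA per cell cannot be told apart.

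**Figure D1:**
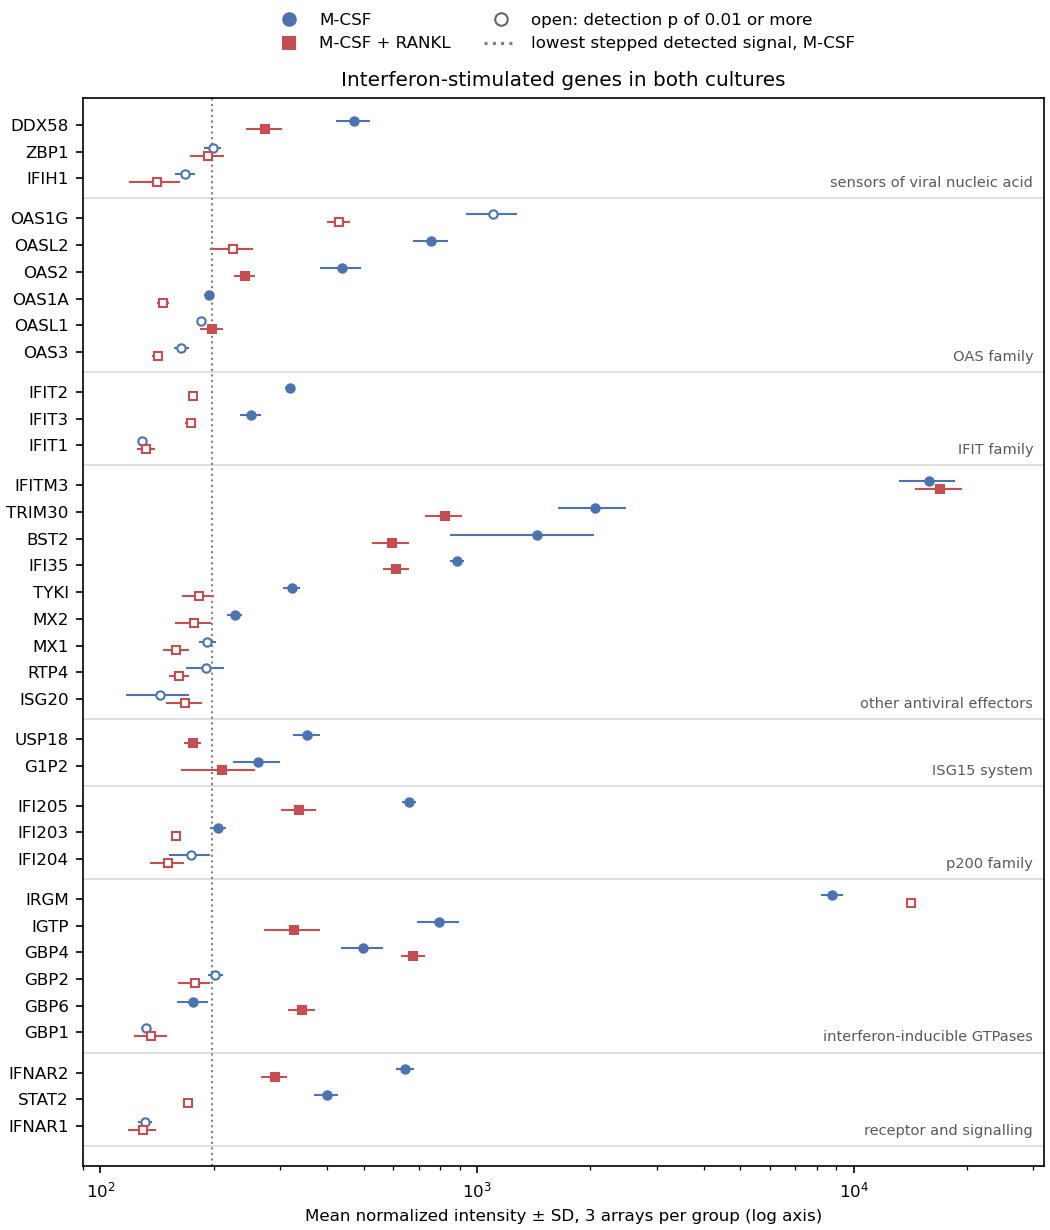
Mean normalized intensity (log axis) ± SD over 3 arrays for the 35 members by array name, with M-CSF alone (circles) and with M-CSF + RANKL (squares), grouped by role. Open symbols have a detection p of 0.01 or more, and the dotted line is the lowest signal with a stepped detection p under 0.01 in the M-CSF group (198). In 27 of the 35 rows the square lies left of the circle, and IRGM, GBP4 and GBP6 are among the 8 rows with the square to the right.

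Single array values are not in the files, but the deposited SDs limit where they can lie. With 3 values, none can be further from the mean than 1.15 SD. By this bound the arrays of the groups could not overlap in 20 of the 23 tested members, all 17 that were lower and all 3 that were higher. The same held for 57.7% of all tested genes. If the SDs were computed with a divisor of 3, the bound is 1.41 SD and holds for 19 members (50.8% of all tested genes), and Bst2 is the called member that drops out. Values below are the authors' means ± SD over 3 arrays. A fold is the ratio of the means. It is a lower bound, written "at least", for a dimmer group that lacked detection and lay below the lowest signal with a stepped detection p under 0.01, which was 198 in the M-CSF group and 196 in the RANKL group. The dimmer value is then replaced by that signal.

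The receptor and its transducer were among the larger falls. Ifnar2, a chain of the interferon receptor, read 644 ± 34.7 in the M-CSF group and 290 ± 23.3 in the RANKL group. It was 2.22-fold lower (log2 −1.15 ± 0.10 SE, adjusted p = 1.1e-06, limma). Stat2, the subunit that carries the activation domain of the transcription complex, read 399 ± 29.0 in the M-CSF group and 170 ± 4.69 in the RANKL group. With RANKL it was no longer detected, so the fall is at least 2.03-fold (adjusted p = 2.58e-07, limma). Arrays of the groups could not overlap in either gene. The partner chain Ifnar1 read 131 ± 5.57 and 129 ± 11.4 and was detected in neither group, so these arrays say nothing about its change.

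Among the sensors of viral nucleic acid, Ddx58, which encodes the RNA sensor RIG-I, read 470 ± 49.1 in the M-CSF group and 274 ± 29.8 in the RANKL group. It was 1.72-fold lower (log2 −0.78 ± 0.11 SE, adjusted p = 9.09e-05, limma). A further array gene that RefSeq assigns to Ddx58, 6430573D20RIK, was detected in neither group (150 ± 7.17 and 132 ± 5.87). Ifih1, the sensor MDA5, and Zbp1, a sensor of Z-form nucleic acid, were not detected in either group. Their means were 168 and 141 for Ifih1 and 199 and 193 for Zbp1, in the order M-CSF alone and RANKL.

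The OAS proteins make 2′-5′ oligoadenylates, which activate the RNA-degrading enzyme RNase L. Oasl2 had the largest fall by log2 fold of the 23 tested members, before any background subtraction. It read 755 ± 80.5 in the M-CSF group and 225 ± 29.5 in the RANKL group, 3.36-fold lower (log2 −1.75 ± 0.12 SE, adjusted p = 1.54e-07, limma). Its detection p with RANKL was 0.0574 although the signal lay above the lowest stepped detected signal. Its paralog Oasl1, which in the mouse restrains the translation of Irf7, did not pass. It read 185 ± 4.30 and 197 ± 13.9, with a log2 fold of 0.10 and a 95% interval of −0.09 to 0.28. Oasl1 was not detected with M-CSF alone (detection p of 0.0697), where it lay under the lowest stepped detected signal. After background subtraction its log2 fold was 0.40 (adjusted p = 0.352, limma). Oas2 fell 1.81-fold from 438 ± 54.6 to 242 ± 15.3, a call lost without moderation (adjusted p = 0.0522). Oas1a read 194 ± 5.87 in the M-CSF group and 147 ± 5.69 in the RANKL group. It was called lower (log2 −0.40 ± 0.08 SE, adjusted p = 0.000867, limma, but 0.0785 with the SDs doubled), and both values lie under the lowest stepped detected signals, so no fold is given.

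Oas1g was left out of the test by its detection p-values, 0.0219 and 0.0179, in spite of its signal. It read 1106 ± 168 in the M-CSF group and 431 ± 30.4 in the RANKL group, a 2.57-fold difference in the means, and its arrays could not overlap. With no filter on detection its adjusted p was 2.95e-07 (limma). Some detection p-values of this table do not follow equal steps, and these can depart from the signal, as for Oas1g. Such a value stands in at least 1 group for 16 of the 35 members. Oas3 read 164 ± 7.56 and 142 ± 4.95 and was detected in neither group.

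The IFIT proteins bind viral RNA and hold back its translation. Ifit2 read 320 ± 10.0 in the M-CSF group and 176 ± 0.806 in the RANKL group, at least 1.63-fold lower (adjusted p = 2.47e-06, limma). Ifit3 read 251 ± 16.6 and 174 ± 6.18, at least 1.28-fold lower. Ifit1, often used as a readout of interferon, was detected in neither group, at 129 ± 3.09 and 132 ± 7.15.

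Antiviral effectors of other families gave 5 lower, 0 higher and 1 not passing of 6 tested. Shares over all tested genes were 29.0% lower and 28.9% higher. Trim30a, a TRIM protein that restrains Toll-like receptor signalling, read 2064 ± 419 in the M-CSF group and 821 ± 92.1 in the RANKL group, 2.51-fold lower (log2 −1.33 ± 0.15 SE, adjusted p = 8.68e-06, limma). Without moderation of the variance that call was lost (adjusted p = 0.072). Bst2, tetherin, which holds budding virions at the cell surface, read 1447 ± 601 and 594 ± 67.5, 2.44-fold lower (adjusted p = 0.00048, limma). Its SD with M-CSF alone was 41.5% of the mean, the highest of the 35 members, and its call was lost with the SDs doubled (adjusted p = 0.0581, limma) and without moderation of the variance (adjusted p = 0.202). Cmpk2, a mitochondrial nucleotide kinase, read 322 ± 15.9 and 183 ± 17.7, at least 1.64-fold lower. Ifi35, a partner of the interferon-induced protein Nmi, fell 1.45-fold from 888 ± 37.4 to 611 ± 48.5. Mx2, a dynamin-like GTPase, read 227 ± 10.8 and 177 ± 19.5, at least 1.16-fold lower (adjusted p = 0.00741, limma). Its call was lost with the SDs doubled (adjusted p = 0.205, limma) and without moderation (0.0677), and that of Ifi35 with the SDs doubled (0.0674).

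Ifitm3 stood apart from these. It blocks virus entry at the endosome, and it read 15911 ± 2672 in the M-CSF group and 17010 ± 2443 in the RANKL group. The log2 fold was 0.10 with a 95% interval of −0.18 to 0.37, and the difference did not pass (adjusted p = 0.533, limma). Mx1, Rtp4 and Isg20 were detected in neither group. Mx1 read 192 and 159, Rtp4 190 and 162, and the exonuclease Isg20 144 and 167.

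In the ISG15 system, the members differed. Isg15, a ubiquitin-like protein that is attached to other proteins, read 262 ± 37.9 in the M-CSF group and 210 ± 46.3 in the RANKL group. The difference did not pass (log2 −0.32, 95% interval −0.65 to 0.01, adjusted p = 0.093, limma). Usp18, the protease that removes ISG15 and also damps signalling at IFNAR2, read 354 ± 28.3 and 176 ± 9.17, 2.01-fold lower (adjusted p = 2.03e-06, limma). Its detection p with RANKL was 0.00886, though the signal lay under the lowest stepped detected signal. Against that signal the fall would be under 2-fold.

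The p200 family encodes nuclear DNA-binding proteins with a HIN domain. Both of its tested members were lower, beside 29.0% of all tested genes. Ifi205 read 660 ± 29.1 in the M-CSF group and 337 ± 36.3 in the RANKL group, 1.96-fold lower (log2 −0.97 ± 0.10 SE, adjusted p = 8.03e-06, limma). Ifi203 read 206 ± 10.3 and 159 ± 1.69, at least 1.05-fold lower, a call lost with the SDs doubled (adjusted p = 0.105, limma). Ifi204 was detected in neither group, at 174 ± 21.6 and 151 ± 15.5.

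The interferon-inducible GTPases, which attack vacuoles that hold bacteria and parasites, were the only role with members called higher. Of 4 tested, 3 rose and 1 fell, beside 28.9% higher and 29.0% lower over all tested genes. Irgm1, a regulatory member of the IRG family, read 8791 ± 572 in the M-CSF group and 14225 ± 444 in the RANKL group, 1.62-fold higher (log2 0.69 ± 0.08 SE, adjusted p = 1.03e-05, limma). Its detection p in the RANKL group was 0.0153 in spite of that signal. Igtp, also known as Irgm3 and of the same regulatory class, went the other way. It read 793 ± 101 and 327 ± 55.3, 2.43-fold lower (log2 −1.28 ± 0.14 SE, adjusted p = 7.22e-06, limma). The third regulatory gene, Irgm2, is not a member and stands on the array as AI481100. It fell 2.48-fold, from 804 ± 67.6 to 324 ± 53.0.

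Among the guanylate-binding proteins, Gbp6 read 176 ± 16.7 in the M-CSF group and 343 ± 28.4 in the RANKL group, 1.95-fold higher (log2 0.96 ± 0.10 SE, adjusted p = 6.3e-06, limma). Its M-CSF value had a detection p of 0.00653 but lay under the lowest stepped detected signal, and against that signal the fold would be smaller. Gbp4 read 499 ± 63.5 and 678 ± 49.6, 1.36-fold higher (adjusted p = 0.00584, limma). The Gbp4 call was lost with the SDs doubled (adjusted p = 0.187, limma) and without moderation (0.0551). Each of these genes has a further array gene, AI595338 for Gbp6 and MPA2 for Gbp4, and both were detected in neither group. Gbp2 (202 and 178) and the array's GBP1, which RefSeq names Gbp2b (133 and 136), were not detected. Mouse Gbp genes are close relatives, and cross-hybridisation between them was not tested.

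**Figure D2:**
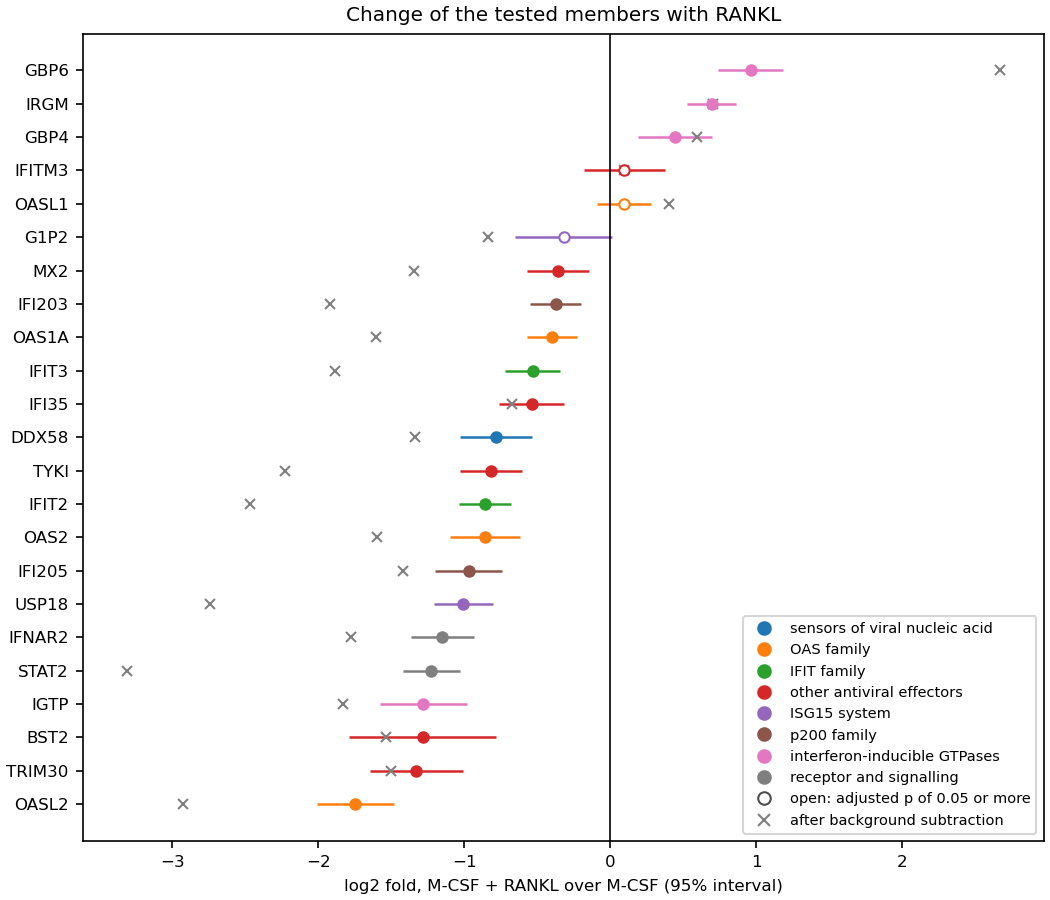
Log2 fold of M-CSF + RANKL over M-CSF with its 95% interval for the 23 tested members, coloured by role. Open circles did not pass at an adjusted p of 0.05, and crosses give the log2 fold after subtraction of the background signal, which is not well measured where a group was undetected. The 17 members called lower lie between −1.75 and −0.36, and the 3 called higher, GBP4, IRGM and GBP6, are all GTPases.

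The undetected members add little. Beside Oas1g, 11 members were detected in neither group. Their means lay between 129 and 202 over both groups, with 8 lower and 3 higher with RANKL, and no fold is read from them. Background on this array was about 145, so folds of dim genes are understated.

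Some listed genes stand on the array under older names that RefSeq pairs with them. These were added after the data were seen. Dhx58, the sensor LGP2 (array name D11LGP2E), read 625 ± 19.2 in the M-CSF group and 242 ± 13.3 in the RANKL group, 2.58-fold lower. Rsad2, viperin, which blocks viral replication (2510004L01RIK), fell 1.90-fold from 394 ± 18.6 to 207 ± 7.87. Eif2ak2, the kinase PKR that halts translation when it binds double-stranded RNA (PRKR), fell 1.53-fold from 3317 ± 260 to 2169 ± 85.7. Ifi27 (D12ERTD647E) read 11414 ± 289 and 12134 ± 863 and did not pass (adjusted p = 0.349, limma). Array genes of Ifi44 and Iigp1 were detected in neither group. With these older names 20 of 27 tested array genes were lower, 3 higher and 4 did not pass. The shares over all tested genes were 29.0% lower and 28.9% higher.

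Promoter sequences were set beside these values because the response element of the pathway is known. RefSeq (GRCm38.p6) promoters were at hand for 26 of the 35 members. As a plain form of the ISRE, the letters GAAA, NN and GAAA in a row, with N for any base, were searched in the 250 bases before the start, also as TTTC, NN and TTTC for the other strand. Overlapping matches were counted separately. They occurred in 15 of the 26 members (57.7%) and in 3.46% of 27025 genes with a promoter in the table. Some genes have several starts, and a gene counted if any of them had a match. By start, matches occurred at 15 of 31 for the members (48.4%) and at 2.98% of all 32851. By gene, they were found in 8 of 14 members called lower and in 1 of 3 that did not pass (Isg15). They were also found in the 1 member called higher that has a promoter, Irgm1, and in 5 of 8 that were not tested. The run thus occurs in members that fell and in 1 that rose. The letters of a gamma-activated site, TTCNNNGAA, which reads the same on both strands, occurred in 6 of the 26 members (23.1%) and in 8.13% of all genes. A match is a run of letters and not a shown binding site, and these runs are short and known to be common in this gene class.

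The 5 members with the largest called falls among those with an ISRE-like run, and Irgm1 as the member that rose, are shown with their 250 bases before the start. The capitals mark the ISRE-like runs. Runs that overlap are joined. For a gene with several starts, the one with the most runs is shown. Trim30a has a further start, with no run in chr7:104446126-104446375.
Trim30a (chr7:104465194-104465443, minus strand): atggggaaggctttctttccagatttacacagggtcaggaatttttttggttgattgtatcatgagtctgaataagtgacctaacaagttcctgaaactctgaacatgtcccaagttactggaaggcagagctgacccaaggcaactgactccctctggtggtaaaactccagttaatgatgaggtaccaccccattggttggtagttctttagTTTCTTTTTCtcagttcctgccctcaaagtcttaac
Bst2 (chr8:71537473-71537722, minus strand): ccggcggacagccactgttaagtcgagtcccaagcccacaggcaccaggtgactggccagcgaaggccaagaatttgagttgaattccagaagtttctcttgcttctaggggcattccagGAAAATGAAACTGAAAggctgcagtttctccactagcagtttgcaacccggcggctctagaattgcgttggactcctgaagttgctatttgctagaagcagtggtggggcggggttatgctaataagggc
Igtp (chr11:58199306-58199555, plus strand): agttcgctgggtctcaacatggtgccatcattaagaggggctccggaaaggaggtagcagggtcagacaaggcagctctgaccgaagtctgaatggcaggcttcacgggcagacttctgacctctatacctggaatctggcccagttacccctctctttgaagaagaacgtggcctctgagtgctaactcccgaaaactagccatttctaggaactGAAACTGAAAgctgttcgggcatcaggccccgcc
Stat2 (chr10:128270248-128270497, plus strand): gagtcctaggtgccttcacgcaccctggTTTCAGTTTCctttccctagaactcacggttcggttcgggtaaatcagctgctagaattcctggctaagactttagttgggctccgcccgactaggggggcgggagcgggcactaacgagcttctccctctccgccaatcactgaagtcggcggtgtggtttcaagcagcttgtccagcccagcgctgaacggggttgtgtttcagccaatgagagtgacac
Ifi205 (chr1:174031756-174032005, minus strand): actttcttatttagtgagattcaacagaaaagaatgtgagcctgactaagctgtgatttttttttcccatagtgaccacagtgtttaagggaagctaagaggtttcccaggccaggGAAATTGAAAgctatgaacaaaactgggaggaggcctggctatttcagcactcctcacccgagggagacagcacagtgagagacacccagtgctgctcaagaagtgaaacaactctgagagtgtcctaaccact
Irgm1 (chr11:48871421-48871670, minus strand): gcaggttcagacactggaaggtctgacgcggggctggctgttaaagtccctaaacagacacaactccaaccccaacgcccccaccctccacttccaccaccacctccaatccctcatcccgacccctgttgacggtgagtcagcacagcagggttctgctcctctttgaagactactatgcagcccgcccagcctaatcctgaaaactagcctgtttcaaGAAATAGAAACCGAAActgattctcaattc
The run begins 36 bases before the start in Trim30a, 34 in Igtp, 134 in Ifi205 and 222 in Stat2. Bst2 holds overlapping runs that begin 130 and 124 bases before the start, and Irgm1 holds runs at 30 and 24. Oasl2 and Ifnar2 hold no such run in this window.

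The rest of the interferon pathway was followed with a further list of 141 names, of which 127 genes stood on the array and 69 were tested. The test called 40 lower (58.0%) and 12 higher (17.4%) and left 17 uncalled, beside 29.0% lower and 28.9% higher over all tested genes. The median of the 69 log2 folds was −0.39. The interferon genes themselves were mostly dim. Of 15 such array genes, 14 were detected in neither group, and all means lay between 131 and 272. The brightest, Ifnab, read 264 ± 18.2 and 272 ± 2.59, above the lowest stepped detected signals, with detection p-values of 0.0219 and 0.0454 that kept it from the test, as for Oas1g. Ifna1, the 1 detected, read 173 ± 5.73 and 162 ± 2.58 and did not pass (adjusted p = 0.318, limma).

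In the chain from receptor to nucleus, Ifnar2, Stat2, Irf9 and Jak1 were called lower, Tyk2 did not pass and Ifnar1 was undetected. The kinases, STATs, IRFs and their regulators on the further list also include genes outside this chain and inhibitors of it. Of 15 tested, 11 fell, 2 rose and 2 did not pass, beside 29.0% lower and 28.9% higher over all tested genes. Irf9, the DNA-binding partner of Stat2 (array name ISGF3G), fell 2.91-fold from 1388 ± 133 to 477 ± 27.9. Of the receptor kinases, Jak1 fell 1.23-fold (adjusted p = 0.0141, limma), and Tyk2 did not pass (908 ± 40.5 and 785 ± 112). Irf7, which amplifies interferon production, read 256 ± 15.8 and 164 ± 18.1, at least 1.31-fold lower. Irf8 and Irf5 fell 3.95-fold and 2.92-fold, Irf2 and Irf1 2.23-fold and 1.86-fold. Irf3, which starts interferon production, rose 1.21-fold (adjusted p = 0.0212, limma), a call lost with no filter on detection (adjusted p = 0.0562), with the SDs doubled (0.306) and without moderation (0.0567). Stat3, which serves mainly the interleukin-6 family of cytokines, fell 1.31-fold from 1055 ± 21.6 to 805 ± 67.1. Irf4 was detected in neither group (173 and 160). Among inhibitors of the chain, Socs3 fell 1.41-fold and Ptpn6 1.24-fold. Pias1 did not pass (3829 and 4303), and Socs1 was detected in neither group (143 and 156). The calls of Jak1, Stat3, Socs3 and Ptpn6 were lost with the SDs doubled, at adjusted p-values of 0.263, 0.181, 0.147 and 0.215 (limma), and that of Socs3 also without moderation (0.0704). Jak2 and Ptpn11 were left out of the test by their detection p-values, at means of 663 and 359 for Jak2 and 3138 and 2409 for Ptpn11.

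The chains of the interferon gamma receptor had means that moved in opposite directions. Ifngr1, the ligand-binding chain, fell 1.73-fold from 2621 ± 262 to 1514 ± 113, and Ifngr2 read 2138 ± 452 and 2740 ± 246, 1.28-fold higher, with an adjusted p of 0.0483 (limma). The arrays of the groups can overlap in Ifngr2, and its call was lost with no filter on detection (adjusted p = 0.0823, limma), after background subtraction (0.0574), with the SDs doubled (0.405), without moderation (0.204), without an intensity trend (0.0504) and at a detection threshold of 0.05 (0.0505).

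**Figure D3:**
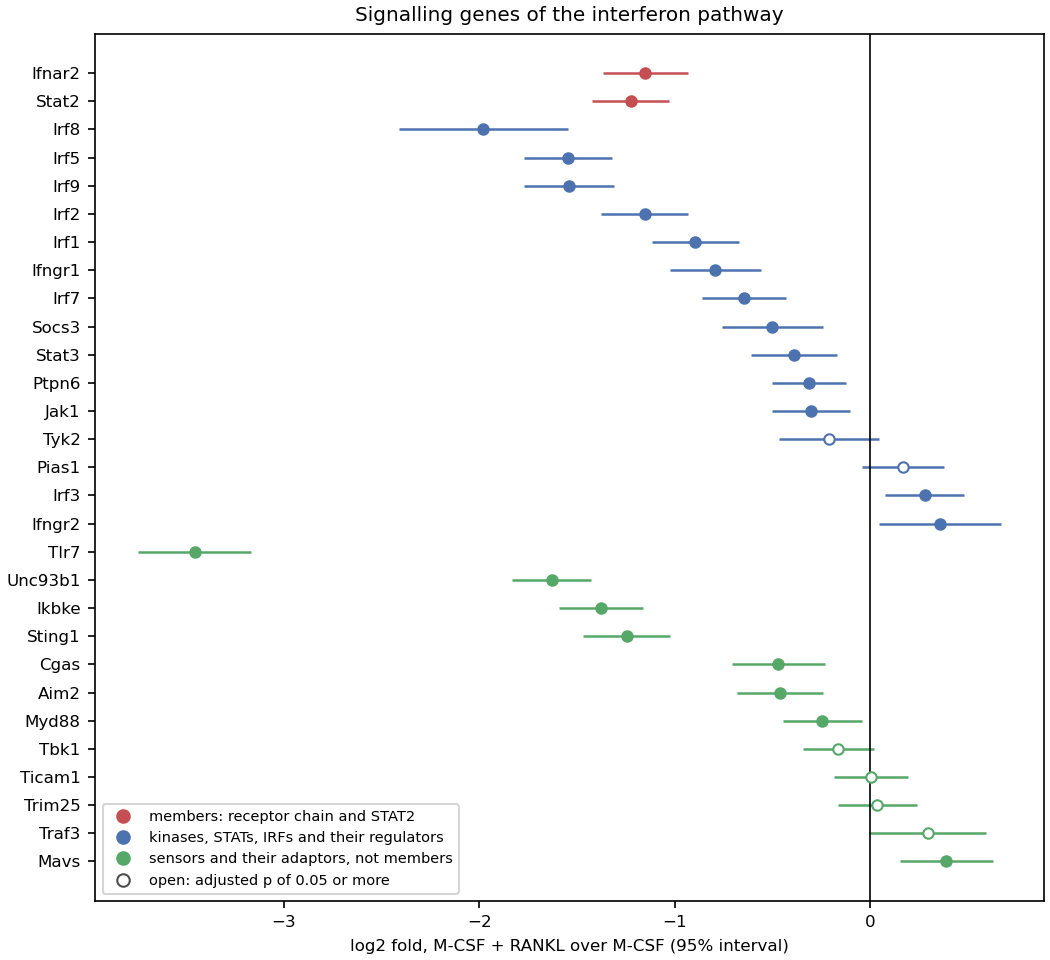
Log2 fold of M-CSF + RANKL over M-CSF with its 95% interval for Ifnar2 and Stat2 and for the tested signalling genes of the further list. Open circles did not pass at an adjusted p of 0.05. Tlr7 lies furthest to the left at −3.46, and Irf3, Ifngr2 and Mavs are the called genes to the right of 0.

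Sensors and adaptors of the further list gave 7 lower, 1 higher and 4 not passing of 12 tested. Over all tested genes 29.0% were lower and 28.9% higher. Tlr7, the endosomal receptor for single-stranded RNA, fell 11.0-fold from 4267 ± 600 to 389 ± 53.6 (log2 −3.46 ± 0.13 SE, adjusted p = 9.8e-10, limma). Unc93b1, which escorts Tlr7 to the endosome, fell 3.10-fold, the kinase Ikbke 2.60-fold and the DNA-sensing adaptor Sting1 2.37-fold. Cgas, the enzyme that signals to Sting1, fell 1.38-fold, a call lost with the SDs doubled (adjusted p = 0.139, limma) and without moderation (0.0589). Aim2 fell 1.38-fold and Myd88 1.18-fold. Both calls were lost with the SDs doubled (adjusted p = 0.119 and 0.379, limma), and that of Myd88 also without moderation (0.179). Mavs, the mitochondrial adaptor of RIG-I and MDA5, rose 1.31-fold (adjusted p = 0.00897, limma, but 0.221 with the SDs doubled and 0.0912 without moderation), and the kinase Tbk1 did not pass (11118 ± 289 and 9940 ± 855).

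**Figure D4:**
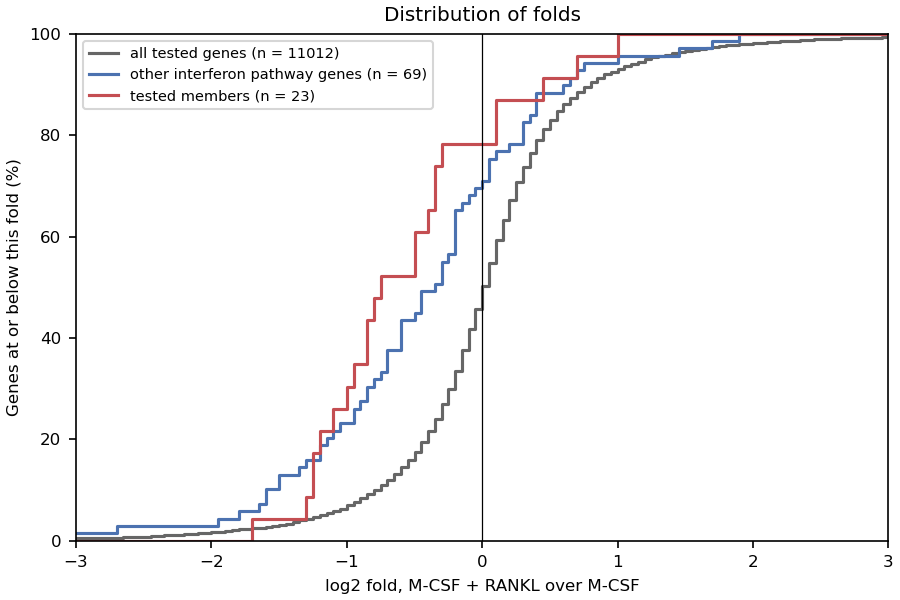
Cumulative share of genes (in %) against the log2 fold of M-CSF + RANKL over M-CSF for the 23 tested members, the 69 tested genes of the further pathway list and all 11012 tested genes. At a log2 fold of −0.5 or less lie 60.9% of the members, 44.9% of the further list and 17.5% of all tested genes.

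Markers of osteoclasts and macrophages moved with the treatment. Of 9 osteoclast markers on the array 7 rose and 2 were detected in neither group, with summed means of 2017 in the M-CSF group and 155479 in the RANKL group. Of 10 macrophage markers 9 fell and 1 did not pass, with summed means of 189057 and 53858. Of 7 markers of plasmacytoid dendritic cells, the professional producers of type I interferon, 2 were detected (Irf7 and Ly6d), and summed means were 3341 and 1880. Most of that sum was Tcf4, at 2256 and 806, whose detection p-values were 0.323 and 0.285. Siglech, a defining marker of these cells, read 219 and 200, with detection p-values of 0.0392 and 0.0208 that missed the threshold. Both signals lay above the lowest stepped detected signals, as for Oas1g, so its absence is not shown. In the mouse these cells carry CD45R, on which the sort was negative, and their presence in the cultures was not tested. Granulocyte markers summed to 14430 and 10838, with 5 of 8 detected and 2 lower. None of 9 T and NK cell markers was detected. Of 6 conventional dendritic cell markers 1 was detected, Batf3, which was lower (280 and 158), and summed means were 1020 and 946. Of 5 B cell markers 1 was detected, Cd79b, which was lower (286 and 205), and summed means were 861 and 787. Of 5 erythroid markers 1 was detected and did not pass, with summed means of 758 and 765. None of 5 stromal markers was detected, with summed means of 715 and 737. Where few markers were detected, such sums are largely background signal of about 145 per gene. The part of the macrophage, granulocyte, dendritic cell and B cell marker changes in the values of the interferon-stimulated genes was not tested.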

How the data were processed

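The authors deposited, for each array gene and group, a normalized intensity on a linear scale as the mean of 3 arrays, per the labels, and, per the file headers, the SD between arrays, a detection p-value and a ratio of the means. That ratio equals RANKL over M-CSF in all 31492 array genes (relative tolerance 1e-06), whereas its header names the opposite, and it was not used. Identical means stand in the value table of the series. The array version, normalization and software were not given in the sources used here.

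From these, the log2 ratio of the means was tested. Variances of the log2 means came from the deposited SDs by the delta method, were pooled on 4 degrees of freedom and then moderated (squeezeVar of limma 3.58.1 under R 4.3.3, trend on intensity, 7.49 prior degrees of freedom). The two-sided p-values were adjusted by Benjamini-Hochberg over the 11012 array genes whose detection p was below 0.01 in a group or in both. Array genes with stepped detection p-values numbered 24691 in the M-CSF group and 24586 in the RANKL group. The code was checked on simulated data. Depth has no counterpart on arrays. The SD of an array gene had a median of 6.89% (M-CSF group) and 6.78% (RANKL group) of its mean.

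All members found in the table are accounted for. Of the further pathway list, the receptor, JAK, STAT and IRF genes and genes called with at least a 2-fold change are named by rule, and others named from it were chosen after their values were seen. That list was not checked gene by gene, and 1 gene of the pathway is not reported here. Where several array genes share a current symbol, the brightest stands for it. Names were matched with the RefSeq gene table of GRCm38.p6. The members and lists were chosen with earlier results of these data known.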

Additional observations from a re-analysis of the deposited data

How the results depend on the processing

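Without a filter on detection, with a filter on signal, with a detection threshold of 0.05, after background subtraction, without an intensity trend and with the median log2 fold of all tested genes set to 0, between 20 and 22 members were called, 17 to 19 of them lower and 3 higher. With both SDs doubled 14 were called, 12 lower and 2 higher, and without moderation 15, 13 lower and 2 higher. All these settings start from the same group means, so the unchanged sign of each called member was largely fixed in advance. With doubled SDs the calls of 6 members were lost: Oas1a (adjusted p = 0.0785, limma), Mx2 (0.205), Bst2 (0.0581), Ifi35 (0.0674), Ifi203 (0.105) and Gbp4 (0.187). Without moderation Oas2 (adjusted p = 0.0522), Mx2 (0.0677), Bst2 (0.202), Trim30a (0.072) and Gbp4 (0.0551) lost theirs. The median log2 fold of the members was −0.36 without a filter, −0.54 with the detection threshold of 0.05 and −1.54 after background subtraction, since these settings add dim members or stretch dim folds. Over all genes, 3054 were called with doubled SDs and 3868 without moderation, in place of 6369, and 32 genes of the further pathway list with doubled SDs in place of 52. With older array names, added after the data were seen, 23 members were called. Signal over background limits the dim members. No paired analysis was possible because each group is 1 deposited mean, and for the same reason no replicate could be left out.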

Other observations

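Other genes known to be induced by interferons went both ways. Of 41 tested on the further list, outside the members and the signalling genes, 22 were lower, 9 higher and 10 did not pass in the limma test. The shares were 53.7% lower and 22.0% higher, beside 29.0% and 28.9% over all tested genes. The list was not checked gene by gene. The fall was largest for Lgals9, the lectin galectin-9, from 2090 ± 207 to 317 ± 23.2 (6.60-fold lower). Gvin1, a very large interferon-inducible GTPase, fell 3.49-fold from 1172 ± 174 to 336 ± 35.0. Lgals3bp fell 3.24-fold from 6188 ± 735 to 1908 ± 213. Parp14 fell 3.10-fold, from 2724 ± 214 to 877 ± 163, and its further array gene, 1600029O10RIK, was at least 1.14-fold lower. Dtx3l, a ubiquitin ligase, fell 2.34-fold, the nuclear body protein Sp110 2.16-fold (a call lost without moderation, adjusted p = 0.0608) and the GTPase Ifi47 2.08-fold.

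The rises included Ifi30, a lysosomal thiol reductase that helps to unfold antigens, from 4083 ± 572 to 13249 ± 1431 (3.25-fold higher). Pml, the scaffold of nuclear bodies, rose 2.71-fold from 567 ± 30.0 to 1535 ± 127. Csrnp1 (array name AXUD1), a nuclear protein first known as induced by axin, rose 3.63-fold from 746 ± 55.7 to 2706 ± 142, and it does not belong to the classical interferon-induced genes although the list held it. The genes that follow were chosen after their values were seen. Within the IFITM family, Ifitm2 rose 1.66-fold from 11475 ± 882 to 19046 ± 1263 and Ifitm1 1.28-fold (adjusted p = 0.158 with the SDs doubled, limma), whereas Ifitm3 and Ifitm6 did not pass. Chains of the immunoproteasome fell: Psmb8 1.97-fold, Psmb9 1.87-fold and Psmb10 1.53-fold. The Psmb10 call was lost with the SDs doubled (adjusted p = 0.0505, limma) and without moderation (0.0921). The peptide transporter chain Tap2 rose 1.93-fold, from 1375 ± 246 to 2658 ± 502 (adjusted p = 0.0706 without moderation), and its partner Tap1 did not pass (446 ± 48.7 and 386 ± 27.9, adjusted p = 0.117, limma).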
